A study of Mus musculus with 4 samples.

Results

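The genes described here mark the walls of brain blood vessels and the barrier they form, and were chosen as a list of 10 symbols of endothelial cells, pericytes and smooth muscle. Of these, 9 were among the 19465 features counted in the sections (Cldn5, Flt1, Slco1a4, Slc2a1, Mfsd2a, Abcb1a, Vtn, Acta2 and Tagln), and the tenth, Ly6c1, had no feature and was not analysed here. The spatial data were Visium-FFPE, in which paired probes bind RNA in fixed tissue and are counted by unique molecular identifiers (UMIs) in barcoded spots, each covering several cells. The dams were wild-type C57BL/6J, aged 8 weeks per the labels. Their amino acid-defined diet held folic acid (FA) at 2 mg/kg in the MF group and at 20 mg/kg in the HF group. Feeding began 2 weeks ahead of mating and lasted to the end of nursing. Coronal sections were taken from their male pups at postnatal day 21, with 2 sections per diet, each from a replicate animal. All groups were of the same strain and sex, no allele was altered, and the diet was that of the mother.

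Brain capillaries are lined by endothelial cells that are sealed by tight junctions and carry nutrients in and foreign compounds out through dedicated transporters, which together make the blood-brain barrier. Pericytes share the basement membrane of the capillary wall, and contractile smooth muscle surrounds arteries and arterioles. The large surface vessels run in the meninges before they enter the tissue, and the capillaries of the choroid plexus are fenestrated and lack the barrier.

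Cldn5, the claudin that seals the endothelial tight junction, lies on chromosome 16 of GRCm38 (18776847 to 18778262, GENCODE vM21). Flt1, a receptor for vascular endothelial growth factor, lies on chromosome 5 (147561604 to 147726011). The transporters are Slc2a1, the glucose carrier GLUT1 (chromosome 4, 119108711 to 119137983), and Mfsd2a, which carries lysophospholipids with docosahexaenoic acid (chromosome 4, 122946850 to 122961188). Slco1a4 takes up organic anions (chromosome 6, 141805440 to 141856199), and Abcb1a encodes the efflux pump P-glycoprotein (chromosome 5, 8660077 to 8748575). Vtn, vitronectin, is expressed by pericytes (chromosome 11, 78499091 to 78502324). Smooth muscle is represented by Acta2, the alpha actin of its contractile fibres (chromosome 19, 34241090 to 34255590), and by the actin-binding protein Tagln (chromosome 9, 45929619 to 45936058).

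Because Acta2 and Tagln varied together over spots, as shown further on, the promoter of Acta2 was read for the CArG box, the site of serum response factor in smooth muscle genes, beside that of Cldn5, an endothelial member. Both are the 300 bases from 250 before to 50 after the start site (RefSeq, GRCm38.p6), given 5′ to 3′ on the strand of the gene, with CArG boxes in capitals, allowing 1 mismatch in their core of 6 bases. The Acta2 sequence lies at chr19:34255324-34255623 (minus strand) and that of Cldn5 at chr16:18776597-18776896 (plus strand).
Acta2: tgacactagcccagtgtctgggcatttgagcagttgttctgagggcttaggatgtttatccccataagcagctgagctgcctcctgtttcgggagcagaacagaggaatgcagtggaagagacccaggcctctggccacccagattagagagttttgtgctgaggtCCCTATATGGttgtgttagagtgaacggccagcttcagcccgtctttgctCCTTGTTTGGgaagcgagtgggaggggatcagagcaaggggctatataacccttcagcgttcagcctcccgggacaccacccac
Cldn5: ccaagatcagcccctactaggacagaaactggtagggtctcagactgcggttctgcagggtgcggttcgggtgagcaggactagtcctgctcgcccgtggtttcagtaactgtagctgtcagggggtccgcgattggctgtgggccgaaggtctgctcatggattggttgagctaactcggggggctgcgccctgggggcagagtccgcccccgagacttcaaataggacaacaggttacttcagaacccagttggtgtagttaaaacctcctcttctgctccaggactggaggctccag
The Acta2 promoter held 2 such boxes, which began 84 and 34 bases before the RefSeq start site used, and neither was an exact match. Cldn5 held 0. RefSeq start sites can differ from the GENCODE spans given above. The 5′ end of the Acta2 span, 34255590, lies inside the window and upstream of the RefSeq site. The window of Abcb1a (chr5:8566841-8567140) lies outside its GENCODE span. The distances therefore hold for the RefSeq site alone. Of the 8 members with a promoter in the table, Slco1a4 was the other one with a match, 1 box with 1 mismatch. The table held no entry for Tagln, whose promoter was not read. Among 32851 promoters of the same length, 9.98% held at least 1 box with up to 1 mismatch, 0.822% held 2 or more, and 1.63% held an exact one, so a match is a description of these letters and not of a bound site.

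Of all spots, 3197 to 3598 per section were kept, with section totals from 34983708 UMIs (HF replicate 1) to 90098381 (MF replicate 1). Depth was therefore unequal between sections, with the deepest in MF and the shallowest in HF, while MF replicate 2 (42423648) and HF replicate 2 (42507273) were close. Spots were clustered without the members and the other vessel, blood and macrophage genes, 155 features in all, so that levels of the members could be compared between areas that they had not defined. Areas are called by the marker list that their leading genes matched: CTX (cortex, Lamp5 and Fezf2), HP (hippocampus, Spink8 and C1ql2), TH (thalamus, Gbx2 and Tnnt1) and HY (hypothalamus, Avp, Oxt and Pomc). The others are STR (striatum, Adora2a and Drd2), WM (white matter, Mag and Mal), CP (choroid plexus, Ttr and Folr1) and MEN (meningeal markers, Ptgds and Slc22a6). Genes that vary with the members could stay in the clustering. Eln, among the features most like Acta2 over spots, was also among the leading genes of MEN. HF replicate 1 stood apart in 1 cluster that took no name and was led by Ndnf and Reln, where it held 318 spots against 135 to 161 in the other sections. In HF replicate 2 a hypothalamic cluster led by Agrp and Pomc held 1 spot, against 112 to 227 elsewhere.

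Over whole sections, most members varied more between the 2 HF sections than between the diets. Levels are UMIs of a gene per 1000000 UMIs of the section or area (CPM), and since probes differ in efficiency they are compared between sections and areas and not between genes. Cldn5 stood at 96.2 and 103.5 CPM in MF replicates 1 and 2, and at 120.2 and 92.1 CPM in HF replicates 1 and 2. Flt1 had 38.2 and 39.8 CPM in the MF sections and 54.3 and 36.0 CPM in the HF sections. For both endothelial genes, HF replicate 1 was the highest of the 4 sections and HF replicate 2 the lowest, with the MF sections between them. Mfsd2a followed the same order, at 19.3 and 18.7 CPM in MF and 22.2 and 12.7 CPM in HF. So did Abcb1a, at 28.2 CPM in each MF section and 33.3 and 23.3 CPM in HF. Vtn ranged from 24.0 to 27.8 CPM, also with HF replicate 1 at the top and HF replicate 2 at the bottom.

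Slc2a1 was the steadiest member, with 168.4 and 176.7 CPM in the MF sections and 174.3 and 168.5 CPM in the HF sections. Slco1a4 had 71.6 and 76.4 CPM in MF and 84.6 and 84.2 CPM in HF, and was the only one of the 9 whose diets did not overlap, where 39.6% of the 14971 features tested did not overlap. Of the smooth muscle genes, Acta2 had 21.8 and 15.6 CPM in MF against 18.6 and 14.99 CPM in HF. Tagln had 19.4 and 15.2 CPM in MF and 17.6 and 13.4 CPM in HF. In both, replicate 1 of each diet lay above replicate 2 of each diet.

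**Figure D1:**
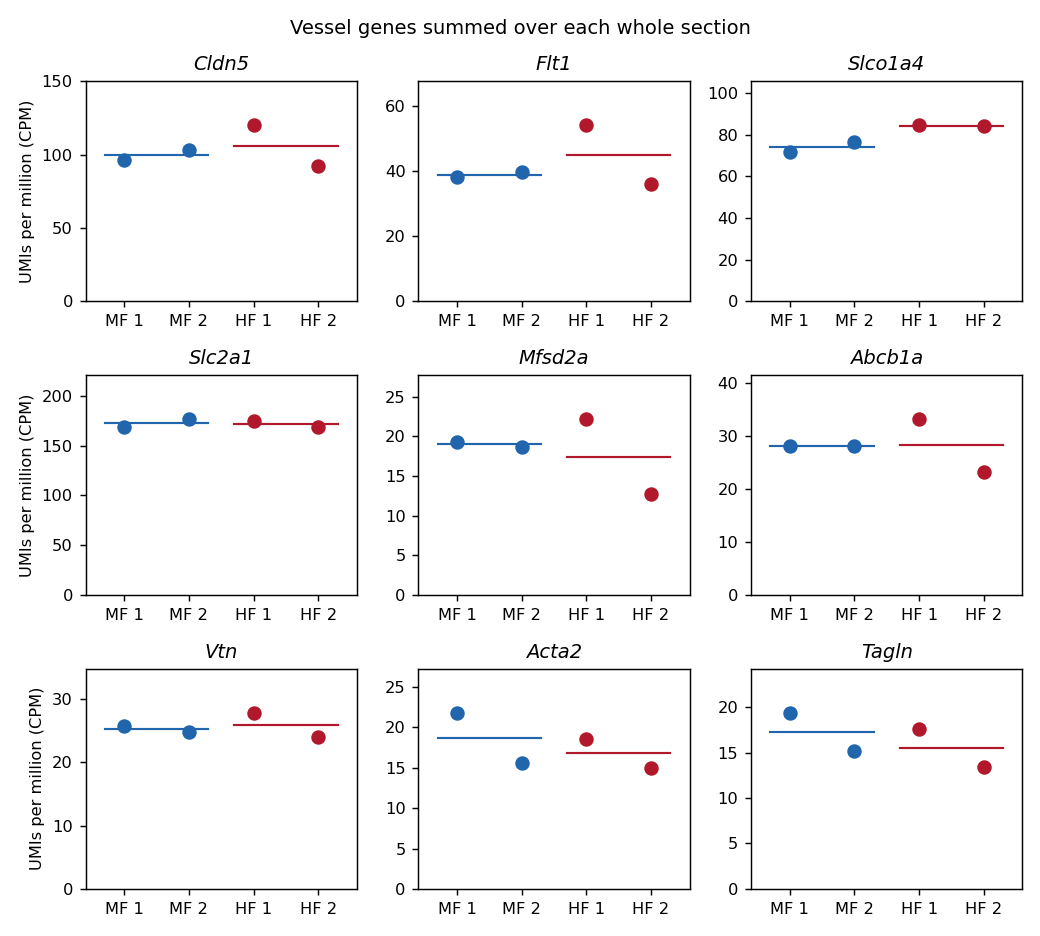
CPM of each vessel gene summed over whole sections, with 1 point per section (blue MF, red HF) and a line at the mean of each diet; the y axes start at 0. HF 1 lies above HF 2 for each gene, by the least for Slco1a4 (84.6 and 84.2 CPM), the only gene whose diets do not overlap.

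The sums were compared between diets with the quasi-likelihood test of edgeR, and a gene was called at an adjusted p under 0.05 (Benjamini-Hochberg over all features tested) and at least 1.2-fold. None of the 9 members was called over the whole section, where 0 of 14971 features were (0%), and 1020 features had an unadjusted p under 0.05. DESeq2 called 0 members and 22 features. The nearest was Slco1a4, with a log2 fold change of HF over MF of 0.18 ± 0.07 (SE), an unadjusted p of 0.039 and an adjusted p of 0.70 by edgeR. The other members lay between -0.17 (Acta2 and Tagln, SE 0.18 and 0.17) and 0.20 (Flt1, SE 0.18). The median of the 9 was -0.01 on the log2 scale, against 0.00 over all features. Calls depended on which HF section was used, for all features as for the members. Without HF replicate 1, 1166 of 15179 features were called (7.68%), and without HF replicate 2, 840 of 15130 (5.55%). Among the members, without HF replicate 1, Mfsd2a was called at -0.58 (adjusted p = 0.0030) and Abcb1a at -0.27 (adjusted p = 0.048), and without HF replicate 2, Flt1 was called at 0.45 (adjusted p = 0.0037). In such a fit the lone HF section is assumed to vary like the MF pair. Less RNA per cell and fewer cells of a type cannot be told apart in these sums, and with 2 sections per diet an exact permutation test cannot give a two-sided p below 0.333.

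Lists of other vessel genes gave no call between the diets in the whole section either. Of 32 endothelial genes 26 were higher in HF and 6 lower, with a median log2 fold change of 0.12. The summed level of that list was 778 and 821 CPM in the MF sections and 916 and 788 CPM in the HF sections, so that HF replicate 1 alone lay above MF. Icam2, an adhesion molecule, had the highest value of the list (0.50 ± 0.15, adjusted p = 0.70 by edgeR), from 4.37 and 5.47 CPM in MF to 6.98 and 6.92 CPM in HF. Adgrf5, an endothelial adhesion receptor, had the lowest (-0.23 ± 0.23). Among 13 pericyte genes 11 were higher in HF, with a median of 0.12. Anpep, an aminopeptidase, had the highest (0.32 ± 0.32). Pdgfrb, the receptor that recruits pericytes to vessels, went the other way, with 22.998 and 20.6 CPM in MF and 17.7 and 16.4 CPM in HF (-0.36 ± 0.10, adjusted p = 0.70).

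Of 16 genes of barrier transport, 8 were higher and 8 lower, from Slc40a1, the iron exporter (-0.14 ± 0.16), to Abcc4, an efflux pump (0.33 ± 0.16). In 15 genes of the Wnt pathway that induces the barrier, 11 were higher, with a median of 0.09, and the ends were Tcf7, a transcription factor (0.45 ± 0.26), and Reck, a Wnt7 co-receptor (-0.13 ± 0.09). Of 6 VEGF genes 5 were higher, from Pgf, a ligand (-0.29 ± 0.29), to Flt4, a receptor (0.40 ± 0.21). Smooth muscle had 11 of 16 higher, from Pln, which restrains the calcium pump (-0.40 ± 0.17), to Itga8, an integrin (0.28 ± 0.14). Of the arterial list 8 of 13 were higher, from Sema3g (-0.34 ± 0.12) to Gkn3 (0.36 ± 0.20), and of the venous list 3 of 7, from Lcn2 (-0.59 ± 0.74) to Slc38a5 (0.28 ± 0.13). Genes of red blood cells, which mark blood left in the vessels, summed to 2266 and 1284 CPM in the MF sections and 2203 and 1404 CPM in the HF sections, and thus split the sections by replicate number, as Acta2 and Tagln did. In the white matter list 12 of 12 genes were lower in HF (median -0.30, 9 at an unadjusted p under 0.05, 0 called), in the astrocyte list 8 of 10 and in the microglia list 5 of 10, while 9 of 12 meningeal and 3 of 4 perivascular macrophage genes were higher. The part of these genes in the levels of the members was not tested.

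Between areas of the section, 7 of the 9 members were highest in all 4 sections where meningeal markers led (MEN), an area added after seeing the data. The exceptions were Slc2a1, highest in spots with ependymal markers in all 4 sections, and Mfsd2a, highest in WM in 3 of 4. Acta2 had 361.8, 196.4, 280.9 and 210.5 CPM in MEN (in the order MF replicates 1 and 2, HF replicates 1 and 2), against 5.21 to 7.44 CPM in CTX. Tagln had 275.7, 183.8, 262.9 and 161.9 CPM in MEN and 6.06 to 8.67 CPM in CTX. In each of the 4 sections MEN was the highest of 10 areas for both genes, with no overlap between its sections and those of CTX. Against the mean of 7 other areas, with section as a block, edgeR gave log2 ratios of 4.22 ± 0.10 for Acta2 (adjusted p = 8.9e-32) and 3.87 ± 0.11 for Tagln (adjusted p = 7.0e-29).

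Of the 9 members 8 were called higher in MEN and 0 lower, where 15% of 13658 features were called higher and 7% lower. Vtn had 98.2 to 168.5 CPM there (log2 ratio 2.28 ± 0.11) and Cldn5 256 to 344 CPM (1.64 ± 0.07). Abcb1a (1.41 ± 0.11), Flt1 (1.09 ± 0.10), Slco1a4 (0.90 ± 0.09) and Slc2a1 (0.81 ± 0.05) followed. Mfsd2a alone was not called, at 14.0 to 36.0 CPM (0.30 ± 0.17, adjusted p = 0.20). The median of the 9 was 1.41, against -0.02 over all features. In the same area 16 of 16 smooth muscle genes, 29 of 32 endothelial genes and 10 of 13 pericyte genes were higher, but 8 of 16 genes of barrier transport. Macrophage genes of the perivascular space (4 of 4), blood genes (4 of 4), microglia genes (10 of 10) and astrocyte genes (8 of 10) were higher there too, while 10 of 12 white matter genes were lower, and their part in the levels of the members was not tested.

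**Figure D2:**
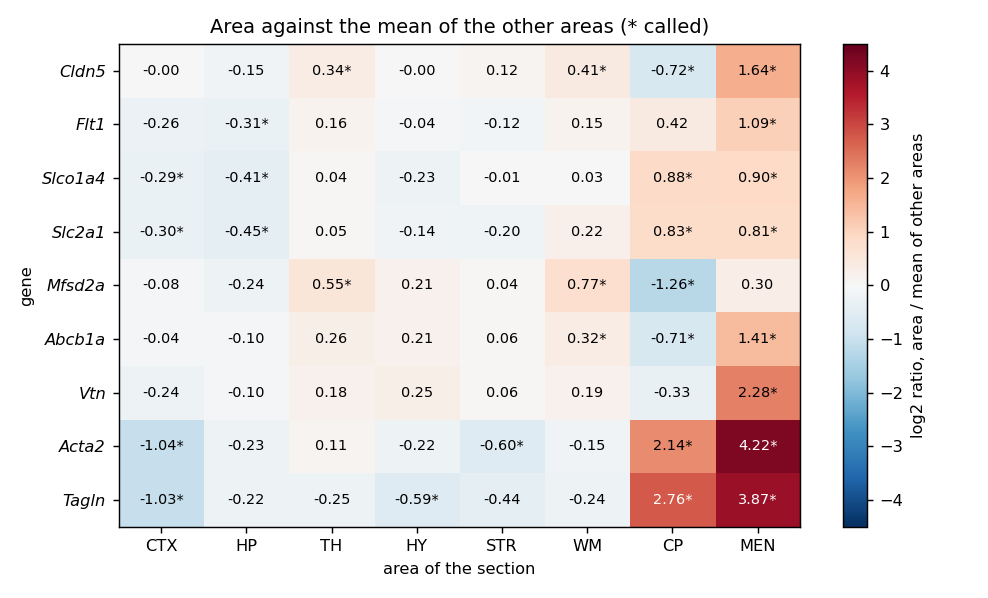
Log2 ratio of each vessel gene in an area (columns) to the mean of the other areas, over the 4 sections, with an asterisk where the gene was called. MEN is high for 8 of 9 genes, and CP is high for Acta2, Tagln, Slco1a4 and Slc2a1 and low for Cldn5, Mfsd2a and Abcb1a.

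The choroid plexus, with 8 to 12 spots per section, divided the barrier genes. Cldn5 had 61.6, 17.8, 57.4 and 52.6 CPM there and was the lowest of 10 areas in all 4 sections (log2 ratio -0.72 ± 0.19, adjusted p = 0.0015 by edgeR). Mfsd2a rested on 0 to 5 UMIs per section (-1.26 ± 0.41, adjusted p = 0.0098) and Abcb1a on 1 to 12 UMIs (-0.71 ± 0.28, adjusted p = 0.034). Slco1a4, at 107.3 to 136.4 CPM, was higher (0.88 ± 0.14), and so was Slc2a1, at 232.1 to 284.1 CPM (0.83 ± 0.07). Acta2 (2.14 ± 0.29) and Tagln (2.76 ± 0.27) were called higher as well, which made 4 members higher and 3 lower, where 22.7% of 13682 features were higher and 25.4% lower. Flt1 (0.42 ± 0.21) and Vtn (-0.33 ± 0.32) were not called. Acta2 rested on 6 to 36 UMIs per section there and Tagln on 8 to 50. The summed list of 16 other smooth muscle genes averaged 469 CPM in CP, against 484 CPM in HP and 415 CPM over whole sections. The 32 endothelial genes averaged 1465 CPM in CP against 825 CPM, and the 12 meningeal markers 1498 CPM against 171 CPM. Astrocyte genes were lower, at 1762 against 3459 CPM. The part of these genes in the levels of the members was not tested. The fall of Mfsd2a was no longer called without MF replicate 1 (-0.95) or MF replicate 2 (-1.02), nor was that of Abcb1a without MF replicate 2 (-0.54) or HF replicate 1 (-0.49).

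Within the brain tissue the differences were smaller, and each area was tested against the mean of the others, not against single areas. The others included CP, with its 8 to 12 spots, where Tagln averaged 59.5 CPM and Acta2 38.3 CPM. In WM, 3 members were called higher and 0 lower, against 15.2% of features higher and 18.1% lower. They were Mfsd2a (19.7 to 27.3 CPM, log2 ratio 0.77 ± 0.12), Cldn5 (107.7 to 114.5 CPM, 0.41 ± 0.07) and Abcb1a (28.0 to 30.5 CPM, 0.32 ± 0.09). Cldn5 (0.34 ± 0.06) and Mfsd2a (0.55 ± 0.10) were also called higher in TH, with 0 members lower, where the background was 18.5% higher and 21.7% lower. In CTX, 0 members were higher and 4 lower (22.3% and 23.8% of features). Acta2 (-1.04 ± 0.13) and Tagln (-1.03 ± 0.14) fell the most in that area, and Slc2a1 (-0.30 ± 0.04) and Slco1a4 (-0.29 ± 0.06) less.

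In HP, 0 were higher and 3 lower (17.5% and 18.1% of features), namely Slc2a1 (-0.45 ± 0.04), Slco1a4 (-0.41 ± 0.07) and Flt1 (-0.31 ± 0.09). Slc2a1 had 121.1 to 150.6 CPM there, and its highest level was in spots with ependymal markers (26 to 31 per section), at 351.1, 333.7, 395.2 and 497.2 CPM, the highest of 10 areas in each section (the others being the 8 above and the medial habenula). HY had Tagln lower (-0.59 ± 0.14) and 0 members higher (18.6% of features higher, 20.3% lower), and STR had Acta2 lower (-0.60 ± 0.21) and 0 higher (13.7% higher, 11.8% lower). Mean Tagln was 10.3 CPM in HY, against 7.07 CPM in CTX, 10.6 to 12.3 CPM in STR, TH, WM and HP, and 59.5 CPM in CP. Mean Acta2 was 10.7 CPM in STR, against 6.71 CPM in CTX, 11.3 to 13.4 CPM in HP, HY, WM and TH, and 38.3 CPM in CP. The call of Flt1 in HP was lost without HF replicate 2 (-0.21), and that of Acta2 in STR without MF replicate 1 (-0.21) or MF replicate 2 (-0.56). At Leiden resolution 0.5 no cluster was named CP, so the mean of the others was taken without CP and the reference changed along with the clusters. HP, TH, STR and WM kept nearly the same number of spots (in HP 225 to 316 per section, against 226 to 312). There, 12 calls were made in place of 21 over the 7 planned areas, of which 8 were among the 21. Acta2 in CTX stayed called, at -0.55. The 13 no longer called were the 7 of CP together with Slco1a4 and Slc2a1 in CTX, Cldn5 in TH, Tagln in HY, Acta2 in STR and Abcb1a in WM. The 4 gained were Cldn5 (-0.32) and Mfsd2a (-0.49) in HP, Acta2 in TH (0.42) and Slc2a1 in WM (0.41).

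At the outer rim of the section, the spots that bordered tissue-free positions, the members rose again. The rim had 180 to 243 spots per section and fewer UMIs per spot than the interior (medians of 5096 to 13756 against 9628 to 24372). Against spots at least 3 steps inside, 8 of 9 members were called higher and 0 lower, where 16% of 14077 features were higher and 11.5% lower. Tagln had 113.9, 36.5, 104.4 and 52.1 CPM at the rim (log2 ratio 2.46 ± 0.19, adjusted p = 5.2e-08 by edgeR). Acta2 had 142.8, 31.6, 106.6 and 42.7 CPM (2.33 ± 0.23, adjusted p = 8.4e-07). For both genes the replicate 1 sections of both diets lay above the replicate 2 sections, and the diets overlapped. Vtn (1.38 ± 0.10), Abcb1a (0.91 ± 0.11), Flt1 (0.87 ± 0.07), Cldn5 (0.79 ± 0.05), Slco1a4 (0.73 ± 0.07) and Slc2a1 (0.43 ± 0.07) were higher by less. Mfsd2a was not called (0.22 ± 0.16, adjusted p = 0.31).

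The rise was steep. Acta2 averaged 80.9 ± 52.8 CPM (SD, n = 4) in the outermost spots, 23.6 ± 13.5 one step in, and 11.03 ± 3.95 at a distance of 3. Cldn5 went from 181.7 ± 26.1 CPM to 115.9 ± 22.1 and 101.6 ± 17.8 over the same distances. Vtn had 66.0 ± 15.5, 27.7 ± 10.2 and 23.3 ± 4.81 CPM. Beyond 3 steps none of these genes had a mean above its level 1 step from the edge. Among other vessel genes at the rim, 31 of 32 endothelial, 12 of 13 pericyte and 13 of 16 smooth muscle genes were higher. Plvap, the protein of fenestral diaphragms, was the highest of the endothelial list (3.73 ± 0.23), and Actg2, a smooth muscle actin, the highest of its list (3.31 ± 0.48). Of the genes of barrier transport 9 of 16 were higher. The 12 meningeal markers were all higher, with a median of 2.74, and blood genes (4 of 4) and perivascular macrophage genes (4 of 4) were higher too, as were 10 of 10 microglia and 8 of 10 astrocyte genes, while 12 of 12 white matter genes were lower. Their part in the rise of the members was not tested.

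**Figure D3:**
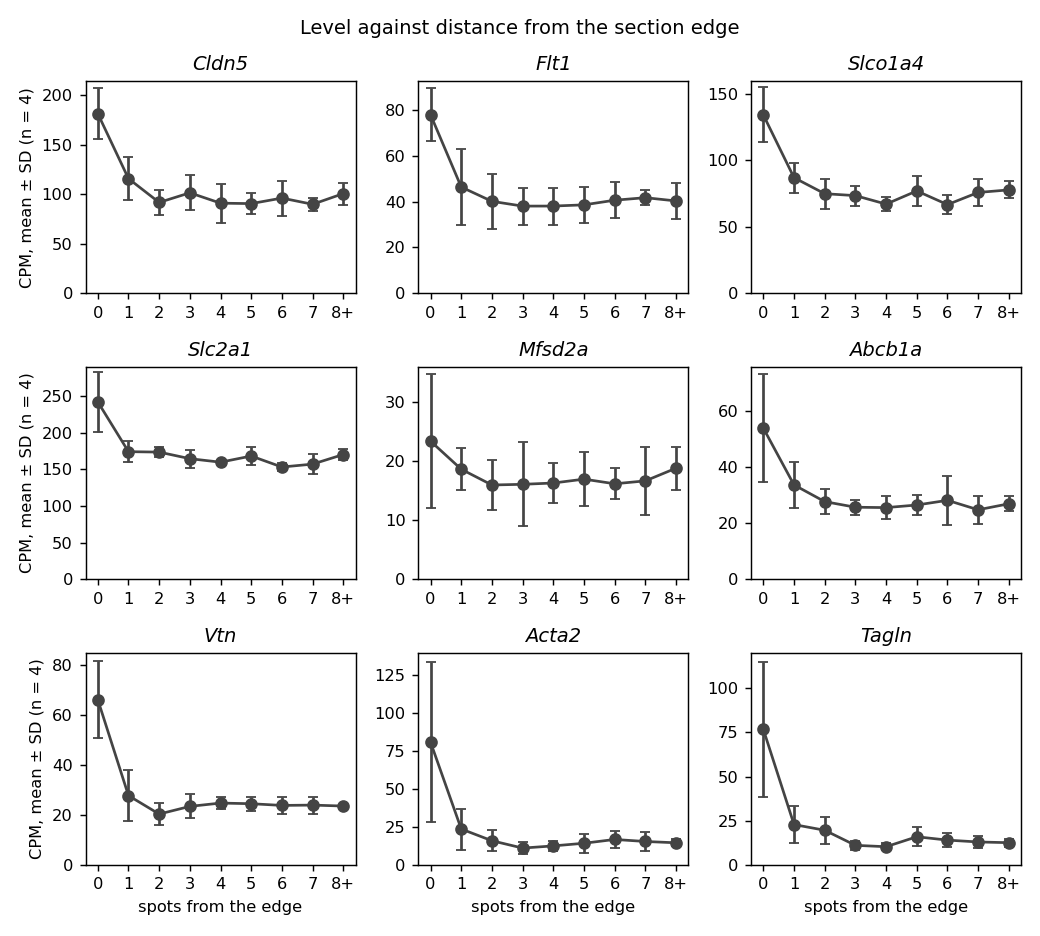
Mean CPM ± SD over the 4 sections of each vessel gene against the distance of spots from the outer edge, counted in spots (0 is the rim, 8+ all deeper spots); y axes start at 0. For Acta2 the mean falls from 80.9 CPM at the rim to 23.6 one step in, and for Cldn5 from 181.7 to 115.9.

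Spots rich in Acta2 showed how the smooth muscle genes were concentrated. Spots with fewer than 5000 UMIs were left out (2687 of 3197 remained in HF replicate 1, and 3216 to 3589 in the other sections), and the others were thinned to 5000 UMIs. In these, 28 to 44 spots per section, from 0.87% to 1.23%, held at least 2 UMIs of Acta2. Between 55% and 68% of these were at the rim or in MEN, where 5.8% to 6.6% of the spots that remained lay. Tagln had 250 to 621 CPM in them, against 10.9 to 15.2 CPM in the other spots, a ratio of 20.2 to 56.9. Cldn5 was 2.97 to 3.64 times as high in them and Mfsd2a 1.17 to 1.44 times. Among the 8 to 14 rich spots per section that lay at least 3 steps inside and outside MEN, Tagln was 11.2 to 17.2 times as high as in other such spots. Slc2a1 was 1.40 to 2.65 times, Cldn5 1.12 to 2.27 times, Flt1 1.15 to 2.06 times and Slco1a4 0.735 to 1.02 times as high. The ratios of Vtn (0 to 2.61), Abcb1a (0 to 1.96) and Mfsd2a (0 to 1.11) began at 0. With so few spots of 5000 UMIs each, all these ratios rest on few UMIs. These spots were chosen by Acta2, so its own level in them is no result.

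**Figure D4:**
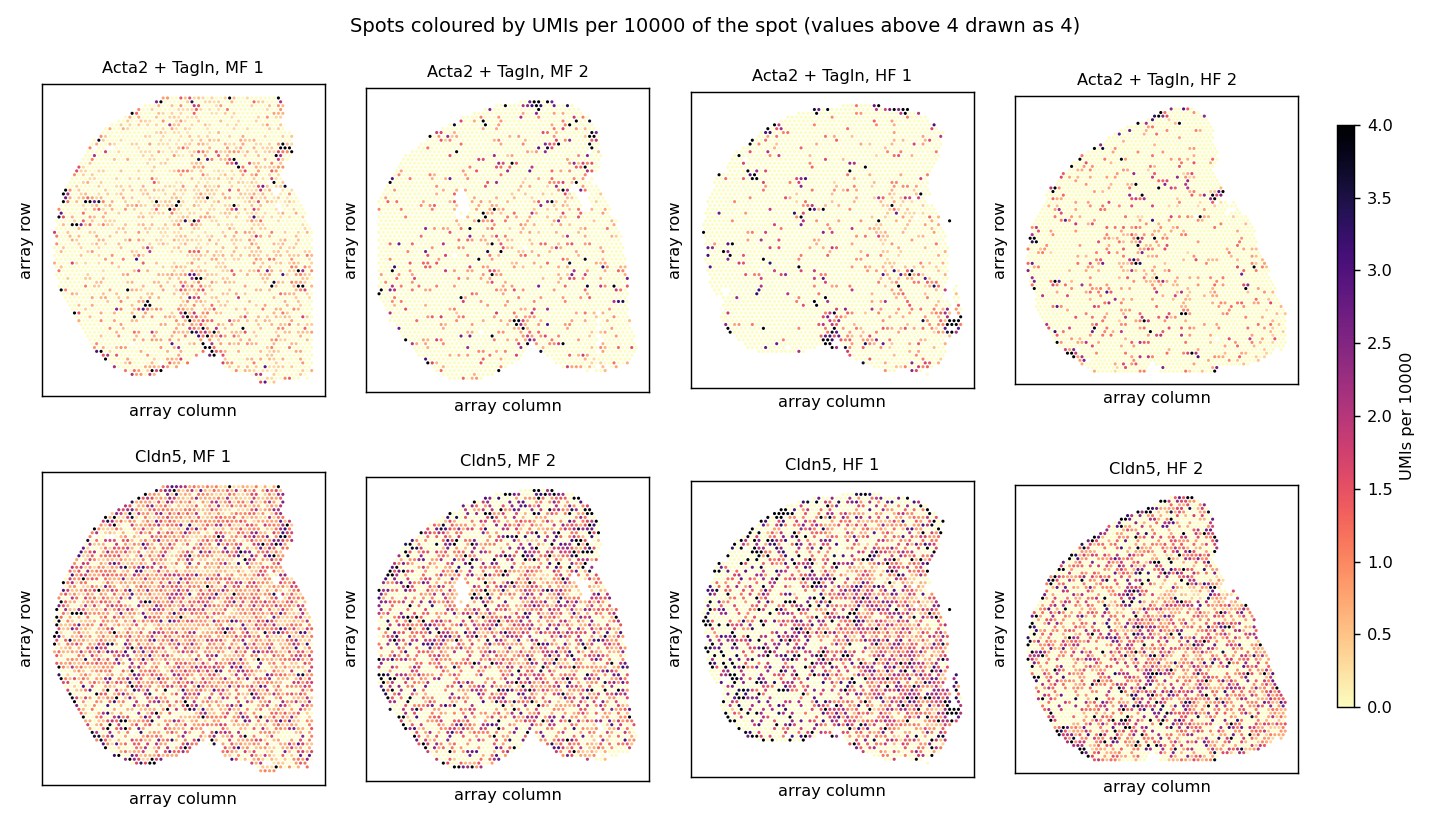
Spots of the 4 sections at their array positions, coloured by UMIs per 10000 of the spot for Acta2 and Tagln together (top row) and Cldn5 (bottom row), with values above 4 drawn as 4. Acta2 and Tagln lie in scattered spots and in runs along the edge, and Cldn5 is spread over the tissue.

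Over spots within a section, the correlation of Acta2 with Tagln was the highest of 36 pairs of members, with a median r of 0.27 over the 4 sections (0.24 to 0.29), and 0.21 after thinning. For Acta2, the features most like it among 11443 were Tagln, Myh11, the smooth muscle myosin (0.25), and Eln, elastin (0.22). Tagln was most like Acta2, Myh11 (0.24) and Crip1 (0.21). Pairs of endothelial members were weak, with Cldn5 and Slco1a4 at 0.18 and 0.10 after thinning. Cldn5 was next most like Pltp (0.17) and Igfbp7 (0.17), Flt1 like Cldn5 (0.16), Bsg (0.15) and Igfbp7 (0.15), Slco1a4 like Cldn5, Pltp (0.18) and Bsg (0.17), and Abcb1a like Cldn5 (0.14), Slco1a4 (0.14) and Bsg (0.13). Vtn was most like Atp13a5, another pericyte gene (0.15), Col1a2 (0.15) and Igf2 (0.15). Among the features most like Slc2a1 were Sparc (0.15) and Ptprb (0.15), and among those most like Mfsd2a were Tcf7l2 (0.10) and Mbp, a myelin gene (0.10). Spots of a section share its depth, and at this sparsity such values are a description. Moran's I, the score of spatial autocorrelation deposited by the authors, ranged over the sections from 0.052 to 0.129 for Acta2 and from 0.010 to 0.022 for Mfsd2a, the widest contrast between members.

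Between the diets no member was called in any of the 7 areas tested, which were CTX, HP, TH, HY, STR, WM and the rim, nor in MEN, by edgeR. DESeq2 called none in 6 of the 7 areas; in HP it gave 5 of the 9 members (Mfsd2a, Abcb1a, Vtn, Acta2 and Tagln) no adjusted p and called none of the other 4. CP had fewer than 10 spots in MF replicate 2 and was not tested. Of all features, edgeR called 4 in CTX (0.0296%), 14 in HP (0.112%), 0 in TH and HY (0%), 9 in STR (0.0784%), 1 in WM (0.00794%), 2 at the rim (0.0163%) and 0 in MEN (0%). At an unadjusted p under 0.05 there were 974 features in TH, 831 in HY and 426 in MEN, and DESeq2 called 46 features in at least 1 of the 7 areas where edgeR called 20. In the hippocampus each of the 9 members had a negative log2 fold change, with a median of -0.21 against -0.00 over all features, of which 49.8% were higher in HF. The 2 HF sections differed, however. Flt1 (40.2 CPM), Mfsd2a (18.5 CPM) and Abcb1a (26.8 CPM) were highest of the 4 sections in HF replicate 1. The same genes were lowest in HF replicate 2 (23.2, 7.37 and 16.5 CPM). Acta2 had 13.5 and 15.1 CPM in the MF sections and 9.23 and 7.37 CPM in the HF sections, from 31 to 122 UMIs. The diets did not overlap (-0.77 ± 0.22, unadjusted p = 0.0042, adjusted p = 0.33 by edgeR). Vtn had 26.4 and 19.0 CPM in MF and 15.2 and 17.6 CPM in HF (-0.50 ± 0.20, unadjusted p = 0.027, adjusted p = 0.53). With Slc2a1, these made 3 members that did not overlap in HP, where 37.5% of features did not. In the same area 12 of 12 white matter genes, 10 of 12 meningeal genes and 4 of 4 blood genes were lower in HF, with Mal, Cldn11 and Ugt8a called, and their part in the lower levels of the members was not tested.

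In the thalamus, Acta2 had 17.5 and 14.1 CPM in MF and 12.4 and 9.53 CPM in HF (-0.53 ± 0.19, unadjusted p = 0.021, adjusted p = 0.62 by edgeR). Tagln had 15.5 and 11.7 CPM in MF and 11.1 and 7.08 CPM in HF (-0.58 ± 0.23, adjusted p = 0.66). With Slco1a4 and Slc2a1, 4 members did not overlap between diets there (38.2% of features). In STR, Mfsd2a had 19.6 and 15.9 CPM in MF and 10.8 and 12.2 CPM in HF (-0.64 ± 0.29, adjusted p = 0.70), and Acta2, unlike in HP and TH, was higher in both HF sections (7.94 and 8.23 CPM against 16.1 and 10.4 CPM, 0.60 ± 0.34). That difference between areas was tested with an area by diet term over 6 areas. Acta2 spanned 1.40 on the log2 scale (unadjusted p = 0.029, adjusted p = 0.74) and Cldn5 0.46 (unadjusted p = 0.024, adjusted p = 0.72), so 0 members were called, where 6 of 13610 features were (0.0441%) and 825 had an unadjusted p under 0.05.

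At the rim, Slco1a4 (0.30 ± 0.14) and Slc2a1 (0.30 ± 0.14) were higher in HF without overlap, at unadjusted p-values of 0.044 and 0.048 (adjusted p = 0.997 by edgeR), and 33.4% of features did not overlap there. Slc2a1 was also higher in MEN, at 295.7 and 295.0 CPM in MF and 391.1 and 365.8 CPM in HF (0.35 ± 0.15, unadjusted p = 0.038, adjusted p = 0.99). The numbers of members that did not overlap in the other areas were 3 in CTX (37.9%), 2 in HY (37.9%), 4 in STR (35.8%), 5 in WM (33.6%) and 2 in MEN (31.6%), beside the share of all features in parentheses.

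Leaving out a section gave calls of members, and more calls over all features. Without HF replicate 1, 4.8% of all features were called in HP, 7.61% in TH and 4.25% in HY, and 9 pairs of member and area were called: Cldn5 (-0.47), Flt1 (-0.56), Mfsd2a (-0.94) and Acta2 (-0.91) in HP, Mfsd2a (-0.66), Acta2 (-0.76), Tagln (-0.98) and Slco1a4 (0.30) in TH, and Tagln (-1.06) in HY. Without HF replicate 2, where 9.81% of features were called in TH and 1.46% in HY, they were Cldn5 (0.31) and Flt1 (0.52) in TH and Flt1 (0.72) in HY. At the rim, Acta2 was called at 1.23 and Tagln at 1.09 without MF replicate 1 (0.383% of features called), and Acta2 at -0.94 without MF replicate 2 (0.459%), so that the direction there turned with the MF section used.

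**Figure D5:**
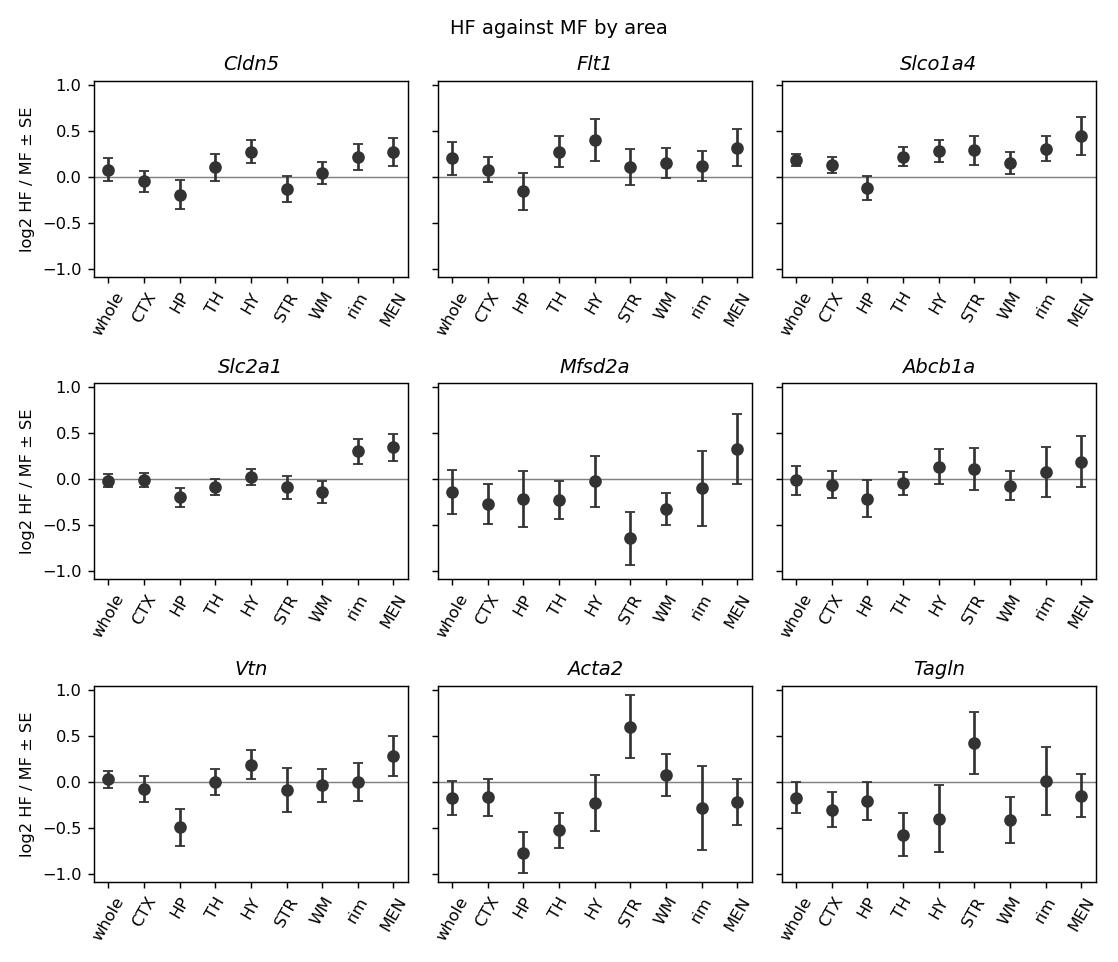
Log2 fold change of HF over MF ± SE from edgeR for each vessel gene over the whole section, 6 brain areas, the rim and MEN; the line marks 0. Acta2 is lowest in HP (-0.77) and highest in STR (0.60), and none of the points was called.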

How the data were processed

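Visium-FFPE sections of 4 animals were used, 2 per diet, each treated as 1 replicate. Per the methods, the authors ran Space Ranger against mm10 (GRCm38), and the deposited values are raw UMI counts per spot and feature. Moran's I is a score deposited with them; the p-values beside it were not used. The filter kept spots with at least 500 UMIs and 250 genes. Depth was 34983708 to 90098381 UMIs per section.

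Spots were clustered (Leiden, resolution 1, leidenalg 0.10.2; 2000 variable genes, 30 principal components, 20 neighbours) and named by marker lists, with at least 3 markers; spots were not deconvolved. UMIs were summed per section and area and tested with edgeR 4.0.16 (R 4.3.3), TMM and filterByExpr. The SE given with an edgeR log2 value was derived from the test, as the absolute value divided by the square root of the F statistic. It is therefore approximate and need not match the p-value exactly. Areas were compared over the 7 areas CTX, HP, TH, HY, STR, WM and CP, and the rim with spots at a distance of 3 or more, with section as a block. The methods were tested on simulated data, where 200 features changed 2-fold. Recovery was 95% over the whole section (14963 features, 7 false calls) and 89.5% in HP (12478 features, 4 false calls). It was 65.5% for area by diet terms (13650, 6 false), 99.5% for areas (13294, 12 false) and 85% for the rim (14006, 15 false). All simulated features had the same fixed dispersion, and only features with enough counts were changed. That dispersion was not estimated from the members. The recovery therefore does not hold for members that vary more between sections than the simulated features. Recovery of changes smaller than 2-fold was not tested.

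All members are named; of other vessel genes, those with the highest and lowest fold change in each list, and those called; and the 3 features most like each member, of which 1 feature is not reported here. Genes such as Mal that are called in an area follow the same rule, and Plvap and Actg2 were named after their values were seen. The members and the gene lists were chosen with earlier results of these data known. Alternatives were DESeq2 1.42.0, no filter, library size alone, a replicate block, spots thinned to 5000 UMIs, interior spots, Leiden resolution 0.5 and each section left out.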

Additional observations from a re-analysis of the deposited data

How the results depend on the processing

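The 9 members stayed without a call between diets over the whole section and over the 7 areas with DESeq2 (which gave 5 members no adjusted p in HP), without a filter, with library size alone, with the replicate block, crossed or not, with thinned spots, interior spots (whole section) and coarser areas (areas). Leaving out 1 section gave 0 to 2 members called over the whole section, 1 to 9 pairs of member and area, 0 to 1166 features called over the whole section and 95 to 1936 in at least 1 area, where the main counts were 0, 0, 0 and 20. Features called over the whole section came to 22 with DESeq2, 5 without a filter, 1 with thinned spots and 11 with the crossed block, and those in at least 1 area to 46, 411, 31 and 183. The crossed block, and MEN as an area, were chosen after seeing the data. Replicate numbers did not pair the sections (r = -0.16 between MF replicate 1 and HF replicate 1): a block by replicate number called 0 members and 113 features in at least 1 area. The area by diet terms called 0 to 188 features without 1 section, against 6, and the calls of members between areas fell from 21 to 12 at resolution 0.5. At that resolution CP was also missing from the mean of the other areas. Median r of Acta2 with Tagln moved from 0.27 to 0.21 with thinned spots and that of Cldn5 with Slco1a4 from 0.18 to 0.10. Whole-section log2 fold changes turned sign for Abcb1a with library size alone (0.0013) and for Vtn with thinned spots (-0.077) and interior spots (-0.046). Without 1 section they ranged from -0.11 (HF replicate 1 out) to 0.25 (HF replicate 2 out) for Cldn5, from -0.11 to 0.45 for Flt1, from -0.58 to 0.20 for Mfsd2a and from -0.27 to 0.22 for Abcb1a, with the same sections out. They ranged from -0.072 (HF replicate 1 out) to 0.11 (HF replicate 2 out) for Vtn, which was -0.0017 without MF replicate 2, from -0.049 (MF replicate 1 out) to 0.014 (MF replicate 2 out) for Slc2a1, from -0.39 (MF replicate 2 out) to 0.10 (MF replicate 1 out) for Acta2 and from -0.38 (HF replicate 1 out) to 0.027 (MF replicate 1 out) for Tagln. The cause was not tested. All calls of the rim and of MEN kept their direction and side in the alternatives run. Depth limits CP, with 8 to 12 spots per section, and the members with few UMIs most.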
